A study of Rattus norvegicus with 24 samples.

Results

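The liver transcripts that held the most sequencing counts in vehicle-treated rats were followed over 7 doses of TCDD. They were chosen as the Ensembl gene IDs whose mean over the vehicle libraries was 1000 CPM or more, where CPM is a gene's count divided by the sum of all gene rows of its library, times 1000000. Of 26404 gene IDs, 114 reached that level. After 2 of them were left out by the selection, 112 members remained, and these are ranked here from 1 (the highest vehicle mean) to 112. TCDD, a chlorinated dioxin, binds the aryl hydrocarbon receptor, a transcription factor that switches on genes of foreign-compound metabolism.

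Livers came from female Sprague-Dawley rats labelled 57 days old. The treated rats received 1 of 7 doses of TCDD (0.01 or 0.03, then 0.1 or 0.3, then 1 or 3, and at most 10 µg/kg) in sesame oil by oral gavage, 1 dose every 4 days, and the vehicle rats received sesame oil alone. Livers of all groups were taken on day 28. Each of the 8 groups held 3 libraries, described by the series as biological replicates, which makes 24 libraries. Each library is whole liver, so fewer cells of a type and less RNA per cell cannot be told apart.

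Liver cells make most of the proteins of blood plasma and carry out much of the body's metabolism of amino acids, lipids, sugars and foreign compounds. Transcripts for secreted plasma proteins, apolipoproteins and metabolic enzymes are known as the most abundant messages of the organ. Which of the 112 IDs belong to these classes is not stated here, because no source used here paired the IDs with gene names. For the same reason the tissue label was not checked against marker genes. The 2 largest rises and the 2 largest falls are given by ID, and the other members by their rank in vehicle.

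The gene rows of a library summed to 11816273 to 15804887 counts (median 12984955). The lowest count of any member in any library was 16, and the lowest in a vehicle library was 6273. Alignments at more than 1 place, which HTSeq counts for no gene, made up 29.3% to 35.0% of a library's total at 10 µg/kg and 21% to 25.8% in the 21 other libraries. The part of this shift in the results at 10 µg/kg was not tested. A level in CPM is a share of counts and not of molecules, since transcript lengths were not used, and levels of different members are ranked on that scale alone.

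The 112 members held 45.0% ± 1.4 of all gene counts in vehicle livers (SD, n = 3 in each group). The share was 44.5% ± 1.04 at 0.01, 44.0% ± 0.608 at 0.03, 43.7% ± 1.21 at 0.1, 43.4% ± 0.448 at 0.3, 44.0% ± 0.564 at 1, 44.0% ± 0.404 at 3 and 42.5% ± 0.344 at 10 µg/kg. The group means thus lay between 42.5% and 45.0%. Without ENSRNOG00000016173, the member with the largest rise, the remaining 111 held 44.9% ± 1.42 in vehicle, 43.7% ± 0.546 at 0.03, 42.2% ± 0.448 at 0.3, 41.3% ± 0.673 at 1, 40.7% ± 0.575 at 3 and 39.4% ± 0.446 at 10 µg/kg. The 3 libraries at 10 µg/kg held 42.2%, 42.3% and 42.9% in all 112 members, below the 44.3%, 46.6% and 44.0% of the vehicle libraries. Because the vehicle level chose the members, this difference from vehicle is a description and carries no test.

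**Figure D1:**
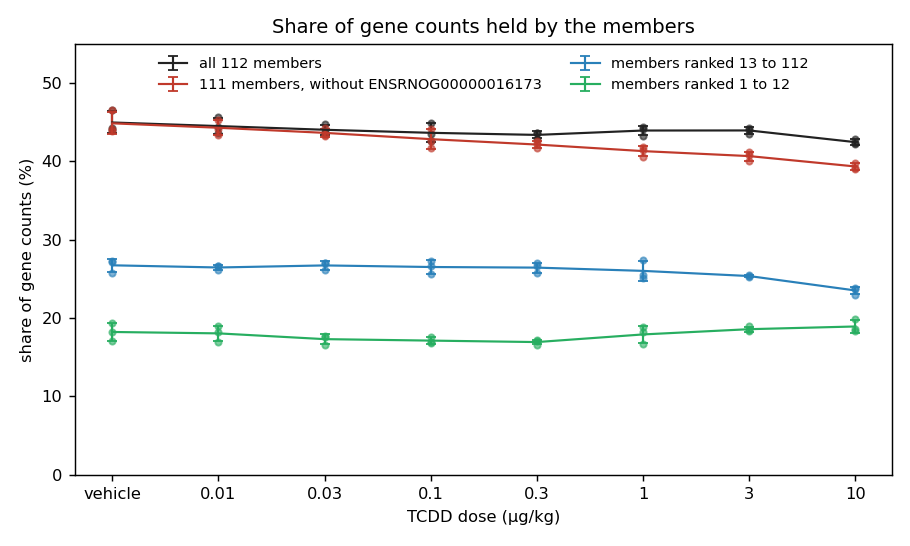
Share of gene counts (%, vertical axis) held by all 112 members, by the 111 without ENSRNOG00000016173, by ranks 13 to 112 and by ranks 1 to 12, in vehicle and at the 7 TCDD doses (µg/kg, horizontal axis). Points are libraries, and lines with bars are means ± SD of 3 libraries; the share without ENSRNOG00000016173 was 39.4% at 10 µg/kg and 44.9% in vehicle, and that of ranks 1 to 12 was 18.9% at 10 µg/kg and 18.2% in vehicle.

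Ranks 1 to 12 held 18.2% ± 1.12 of gene counts in vehicle, 16.9% ± 0.280 at 0.3 and 18.9% ± 0.816 at 10 µg/kg. Without rank 1, ranks 2 to 12 held 14.3% ± 0.831 in vehicle, 13.3% ± 0.336 at 0.3 and 13.3% ± 0.295 at 10 µg/kg, so the sum of the 12 was higher at 10 µg/kg than in vehicle with rank 1 included and lower without it. Ranks 13 to 112 held 26.7% ± 0.845 in vehicle, 26.4% ± 0.651 at 0.3 and 23.5% ± 0.471 at 10 µg/kg. Set against the 6 libraries at 0.01 and 0.03 µg/kg, which serve below as the low end of the dose range, 27 members had a higher mean share at 10 µg/kg and together gained 7.33 percentage points. The shares of the other 85 together fell by 9.14 points. The gain was concentrated in few members, with 5.07 points in the 3 largest, while the 10 members with the largest losses together fell by 3.07 points. ENSRNOG00000016173 gained 2.80 points, the member ranked 1 gained 1.86 and ENSRNOG00000020928 gained 0.411.

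The list of abundant IDs turned over as the dose rose. Of the 112 members, 107 were at or above 1000 CPM at 0.01, 106 at 0.03, 108 at 0.1, 104 at 0.3, 98 at 1, 87 at 3 and 81 at 10 µg/kg. Members near the threshold were picked on their vehicle values, so these counts are a description. Other IDs at or above 1000 CPM numbered 5 at 0.01, 13 at 0.03, 7 at 0.1, 10 at 0.3, 10 at 1, 15 at 3 and 21 at 10 µg/kg. Those 21 held 4.16% ± 0.0697 of gene counts at 10 µg/kg, against 1.08% ± 0.0985 in vehicle, and were themselves picked on their level at 10 µg/kg. For 13 of them the vehicle mean was 500 to 1000 CPM and for 5 it was under 100 CPM. The highest of them had 10868 ± 846 CPM at 10 µg/kg and 13.6 ± 4.62 CPM in vehicle. Just inside the threshold, ranks 110 to 112 had vehicle means of 1056, 1020 and 1018 CPM, and the next 3 IDs outside it had 998, 975 and 971 CPM.

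The members' change with dose was tested in contrasts that left out the vehicle mean, on which they were chosen. Each dose from 0.1 µg/kg up was tested against the mean of 0.01 and 0.03 µg/kg with edgeR's quasi-likelihood test. Benjamini-Hochberg adjustment ran over all 12496 genes tested, and a gene is called here at an adjusted p below 0.05. All 112 members passed the filter on low counts. The low end is itself treated with TCDD, so the folds are relative to low doses. Members had to be abundant in vehicle, whereas the other genes tested had only to pass the filter. Genes abundant only at high doses could not be members, so the balance of rises and falls set beside all genes carries this selection. At 10 µg/kg 66 members were called, of which 6 rose and 60 fell. Among all genes tested 30.8% were called at 10 µg/kg, 15.8% as rises and 15.1% as falls. The median log2 fold change was -0.49 over the members and -0.01 over all genes tested. The 60 falls ranged from -4.11 to -0.36 on the log2 scale with a median of -0.89. Of these, 25 were falls of at least 2-fold, against a background of 4.51%, and 10 of at least 4-fold, against 1.28%. Rises of at least 2-fold numbered 3, against a background of 7.93%.

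The number of members called grew with dose. At 0.1 and at 0.3 µg/kg 1 member was called, a rise in both comparisons, where 0.056% and 0.2% of all genes were called (0.184% rises and 0.016% falls at 0.3 µg/kg). At 1 µg/kg 9 members were called, 2 rises and 7 falls, against 2.05% of all genes (1.63% rises, 0.416% falls). That count was 1 without the second library at 1 µg/kg and 3 without the third. Over all genes the calls fell from 256 to 77 and 107 in these fits. At 3 µg/kg 23 members were called, 6 rises and 17 falls, against 9.03% of all genes (5.74% rises, 3.29% falls). The members' median log2 fold change was -0.04 at 0.1, -0.08 at 0.3, -0.13 at 1 and -0.20 at 3 µg/kg, and the median of all genes tested stayed at -0.01 or nearer to 0 in each. The medians at 0.1 and 0.3 µg/kg moved with single libraries of the low end. At 0.1 µg/kg the median was 0.02 without the second library at 0.01 µg/kg and 0.01 without the second at 0.03 µg/kg. Leaving out the second library at 0.03 µg/kg moved the median at 0.3 µg/kg to -0.03.

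The libraries were also compared one by one, in CPM on TMM-scaled library sizes (factors 0.898 to 1.11). The levels printed for single members lack this scaling, so overlaps read from them can differ. At 10 µg/kg all 3 libraries lay below all 6 low-end libraries for 61 members and above them for 6, and the groups overlapped for 45. Among all genes tested 14.8% lay wholly below and 14.9% wholly above. At 3 µg/kg 23 members lay wholly below and 8 wholly above (5.85% and 7.08% of all genes), and at 1 µg/kg 10 lay below and 5 above (3.62% and 4.28%). At 0.3 µg/kg 3 members lay below and 1 above, with 1.82% and 2.74% of all genes, and at 0.1 µg/kg 1 lay above and 111 overlapped, where 1.61% of all genes lay below and 2.42% above.

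**Figure D2:**
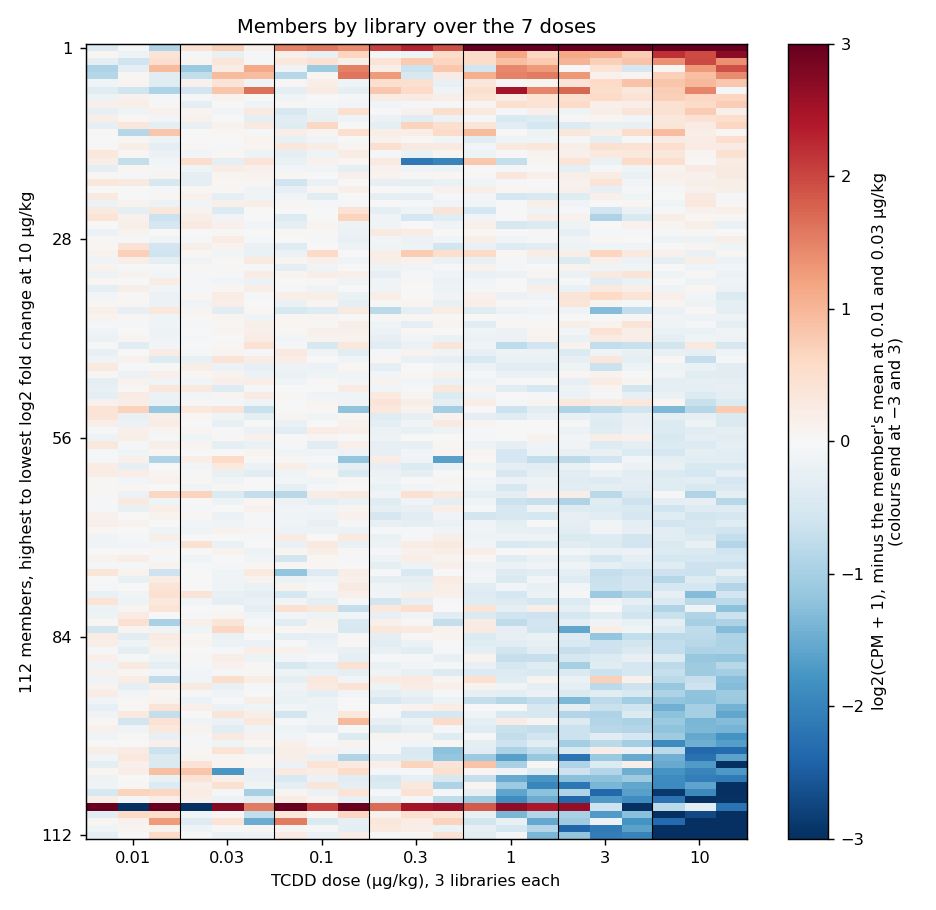
Level of each of the 112 members (rows) in each of the 21 TCDD libraries (columns, 3 per dose), as log2(CPM + 1) minus the member's own mean over the 6 libraries at 0.01 and 0.03 µg/kg. Rows run from the highest to the lowest log2 fold change at 10 µg/kg, and the lower rows turn blue mainly at 3 and 10 µg/kg, while the row with alternating dark cells near the bottom is the member ranked 76.

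The step between the highest doses was tested on its own, with neither vehicle nor the low end in the contrast. Comparing 10 with 3 µg/kg, 27 members were called, 1 rise and 26 falls, where 5.29% of all genes were called (2.46% rises, 2.83% falls). The median log2 fold change was -0.33 over the members and -0.01 over all genes. This count depended on single libraries: it was 13 without the second library at 3 µg/kg, 15 without the second at 10 µg/kg and 8 without the third at 10 µg/kg. Calls over all genes fell too, from 661 to 340, 239 and 202 in the same fits. The members called numbered 15 with no scaling of the library sizes beyond the total count.

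Over the whole range of doses, a slope on the rank of the dose in the 21 TCDD libraries was called for 55 members, 6 rising and 49 falling, against 29% of all genes (16% rising, 13% falling). A difference of any shape among the 7 doses was called for 48 members, against 17.3% of all genes. Each of the 60 members that fell at 10 µg/kg was placed by the lowest dose at which it was called as a fall. That dose was 1 µg/kg for 7 members, 3 µg/kg for 11 and 10 µg/kg for 42, where 0.408%, 2.97% and 12.2% of all genes tested had their first call as a fall at these doses. The 7 falls at 1 µg/kg were 0 without the second library at 1 µg/kg (edgeR, 17 members in either direction at an unadjusted p under 0.05) and 1 without the third. No call at any of the 5 doses was made for 45 members and for 67.6% of all genes tested.

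The share of falls was also set beside the vehicle level over all genes tested but the 2 IDs left out. At 10 µg/kg falls made up 1.85% of the 1354 genes with a vehicle mean under 1 CPM and 7.10% of the 4856 genes at 1 to 10 CPM. They made up 20.7% of the 5282 genes at 10 to 100 CPM, 40.6% of the 890 genes at 100 to 1000 CPM and 53.6% of the 112 members. Rises made up 30.1%, 18.7%, 10.9%, 8.43% and 5.36% of the same bands. The median log2 fold change was 0.60, 0.12, -0.10, -0.30 and -0.49. Genes more abundant in vehicle held more falls and fewer rises band by band, with the members at the upper end of that sequence. The bands were cut on the vehicle level, the measure that chose the members. Genes high only at 10 µg/kg therefore sat in the lower bands by construction, and the sequence is a description. Counting precision rises with level too, so the share called is not a measure of size alone. The pattern was not tested against any other grouping of genes.

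**Figure D3:**
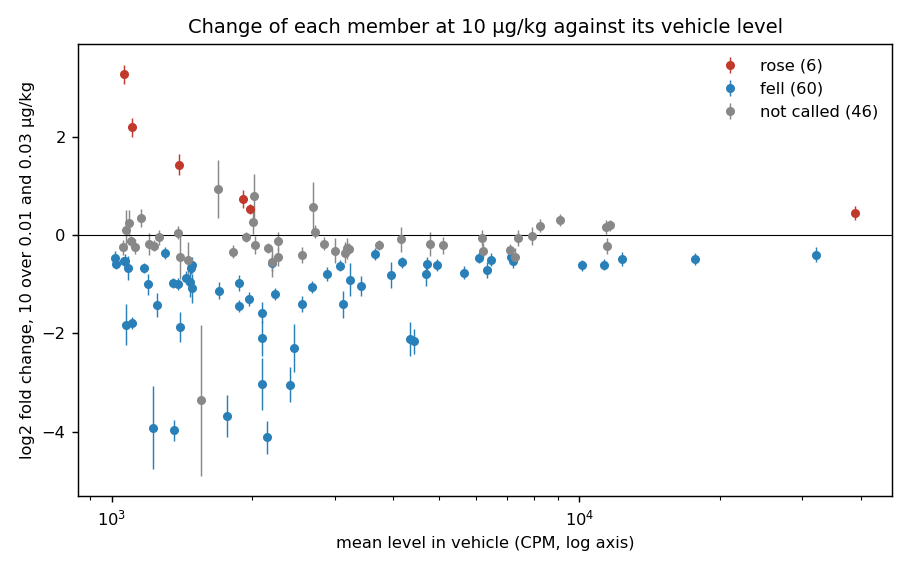
Log2 fold change at 10 µg/kg over the mean of 0.01 and 0.03 µg/kg (vertical axis, bars are 1 standard error) against the mean vehicle level (CPM, log axis) for the 112 members. Members that rose (6), fell (60) or were not called (46) are coloured apart; the largest changes in both directions belong to members with vehicle levels of about 1000 to 2500 CPM.

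ENSRNOG00000016173, ranked 109 in vehicle, was the member that rose most. Its 3 libraries had 1551, 798 and 840 CPM in vehicle, 2147, 2814 and 1533 at 0.01, 3959, 4720 and 3178 at 0.03 and 8085, 8533 and 7608 at 0.1 µg/kg. They had 11768, 14174 and 11003 CPM at 0.3, 26811, 27261 and 24753 at 1, 32315, 31279 and 34628 at 3 and 31849, 31394 and 29902 at 10 µg/kg. Up to 3 µg/kg every library exceeded every library of the dose before it, with the exception of 0.01 µg/kg, whose lowest library lay below the highest vehicle library. In these CPM, which are not TMM-scaled, the libraries at 3 and 10 µg/kg overlapped.

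The log2 fold change of ENSRNOG00000016173 over the low end was 1.46 at 0.1 µg/kg (SE 0.20, adjusted p 0.0013 in edgeR) and 3.27 at 10 µg/kg (SE 0.20, adjusted p 2.13e-10). The call at 0.1 µg/kg was lost in a fit of the compared groups alone (1.47, adjusted p 0.098 in edgeR), 1 of 33 other settings. Between 10 and 3 µg/kg it was -0.27 (SE 0.24, adjusted p 0.555). This was the only member called at 0.1 or 0.3 µg/kg. By mean level it stood at position 109 among the members in vehicle, 31 at 0.03, 3 at 1 and 2 at 10 µg/kg, where it held 3.10% of all gene counts. Its membership rests on the first vehicle library: without that library its vehicle mean is 819 CPM and it falls under the threshold.

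ENSRNOG00000020928, ranked 100, rose at the top of the dose range. The vehicle libraries had 1098, 1011 and 1210 CPM, those at 0.01 µg/kg 1071, 932 and 1358 CPM and those at 0.03 µg/kg 997, 878 and 1008 CPM. It had 1501, 2299 and 1582 CPM at 1, 2253, 2197 and 1744 at 3 and 4747, 4016 and 6685 at 10 µg/kg. The vehicle levels lay within the span of those at 0.1 and 0.3 µg/kg. From 1 µg/kg on its libraries lay above all 6 of the low end. The log2 fold change was 0.84 at 1 (SE 0.19, adjusted p 0.0201), 1.07 at 3 (SE 0.19, adjusted p 0.00096) and 2.19 at 10 µg/kg (SE 0.19, adjusted p 3.12e-08), in edgeR. It was the member called as a rise between 10 and 3 µg/kg, with a log2 fold change of 1.12 (SE 0.23, adjusted p 0.00674). The call at 1 µg/kg was lost without the second library of that dose (0.62, adjusted p 0.271) and against 0.01 µg/kg alone (0.73, adjusted p 0.153), and that for 10 against 3 µg/kg without the third library at 10 µg/kg (0.88, adjusted p 0.0618), in edgeR.

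**Figure D4:**
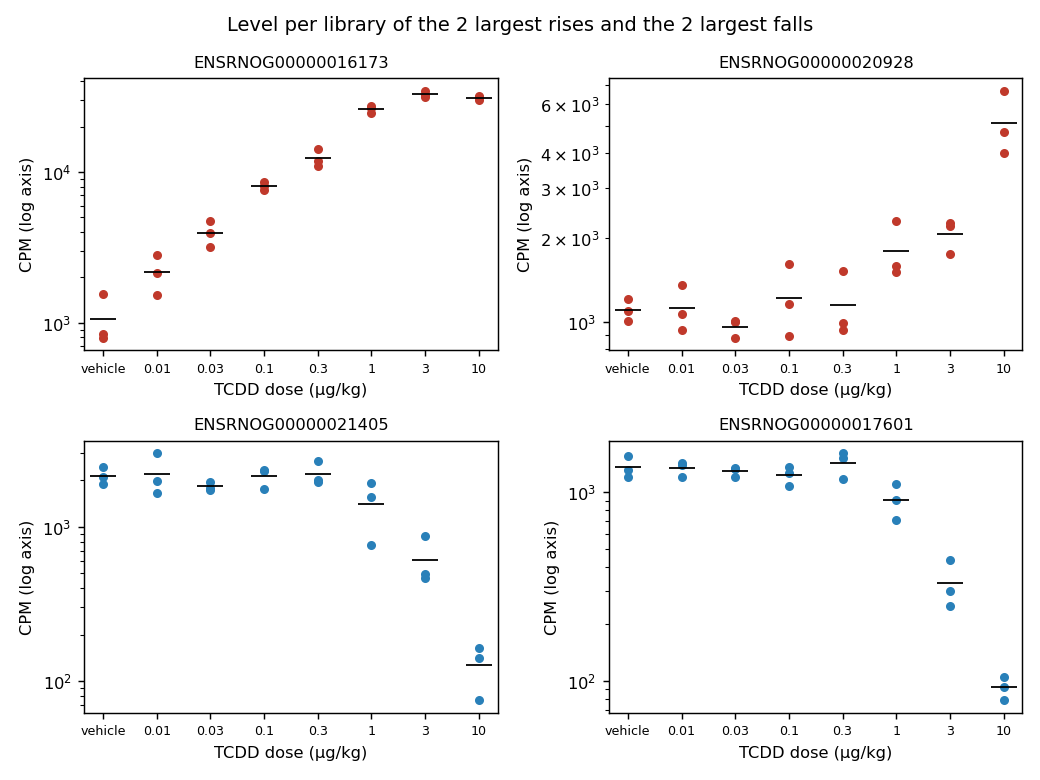
Level per library (CPM, log axis) of ENSRNOG00000016173 and ENSRNOG00000020928, the 2 largest rises, and of ENSRNOG00000021405 and ENSRNOG00000017601, the 2 largest falls, in vehicle and at the 7 doses (µg/kg). Points are libraries and dashes are group means; the first ID climbs from the lowest dose to a mean of 31048 CPM at 10 µg/kg, the second only from 1 µg/kg, and both falls set in above 0.3 µg/kg.

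The other 4 rises at 10 µg/kg were smaller. The member ranked 85 had 3261, 4976 and 3299 CPM at 10 µg/kg, against 843 to 1788 CPM in the low end, a log2 fold change of 1.43. Those ranked 69 and 66 had 3256 to 3646 and 3070 to 3284 CPM at 10 µg/kg, with log2 fold changes of 0.72 and 0.52. All 3 were also called as rises at 3 µg/kg, though the call of rank 69 there was lost in 5 of 33 other settings, with adjusted p up to 0.12 in edgeR. The member ranked 1 had 51126, 55450 and 62126 CPM at 10 µg/kg, against 30975 to 42407 CPM in the low end, and its log2 fold change was 0.45 (SE 0.14, adjusted p 0.0164 in edgeR). That call was lost without the third library at 10 µg/kg (0.36, adjusted p 0.105), against 0.01 µg/kg alone (0.33, adjusted p 0.149) and in a fit of the compared groups alone (0.46, adjusted p 0.0600). It was the highest of the 112 members in vehicle and at all 7 doses.

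A rise that was not kept at the highest dose was seen in the member ranked 99. It had 1062 to 1396 CPM in the low end, 1560, 1826 and 1573 CPM at 3 µg/kg and 1335, 1132 and 900 CPM at 10 µg/kg. Its log2 fold change over the low end was 0.52 at 3 µg/kg (SE 0.15, adjusted p 0.0331) and -0.24 at 10 µg/kg (adjusted p 0.266), and 10 against 3 µg/kg gave -0.76 (adjusted p 0.0184), all in edgeR. The call at 3 µg/kg was lost in 8 of 33 other settings (adjusted p up to 0.191, without the second library at 3 µg/kg) and that for 10 against 3 µg/kg in 4 of 31 (up to 0.116, without the third library at 10 µg/kg).

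ENSRNOG00000021405, ranked 59, had the largest fall. The vehicle libraries had 1904, 2447 and 2095 CPM, and the low end had 1661, 1980 and 2991 CPM at 0.01 and 1957, 1744 and 1791 CPM at 0.03 µg/kg. It had 1559, 1927 and 764 CPM at 1, 871, 469 and 494 at 3 and 163, 142 and 75 at 10 µg/kg. At 3 and 10 µg/kg all libraries lay below the low end, and at 1 µg/kg the groups overlapped. The log2 fold change was -1.65 at 3 (SE 0.29, adjusted p 0.000813) and -4.11 at 10 µg/kg (SE 0.33, adjusted p 1.30e-08), and -2.47 for 10 against 3 µg/kg (adjusted p 0.000139), in edgeR.

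ENSRNOG00000017601, ranked 88, had the next largest fall. The vehicle libraries had 1202, 1313 and 1559 CPM, and the low end ranged from 1206 to 1420 CPM. Its libraries had 1106, 913 and 710 CPM at 1, 250, 300 and 434 at 3 and 105, 92.9 and 78.5 at 10 µg/kg. The libraries at 1, 3 and 10 µg/kg lay in descending order below the low end without overlap. The log2 fold change was -0.48 at 1 (SE 0.17, adjusted p 0.159, not called), -1.95 at 3 (SE 0.19, adjusted p 4.95e-07) and -3.97 at 10 µg/kg (SE 0.21, adjusted p 2.72e-11), in edgeR.

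The next falls at 10 µg/kg in order of size were those of ranks 94, 73, 52 and 62, with log2 fold changes of -3.92, -3.68, -3.05 and -3.03. Rank 94 had 328, 62.5 and 16.3 CPM at 10 µg/kg, against 595 to 4014 CPM in the low end. Its estimate was -5.68 without the first library at 10 µg/kg. Rank 73 had 105, 184 and 30.6 CPM at 10 µg/kg and rank 62 had 197, 385 and 45.2 CPM. Both were highest in the second and lowest in the third library of that dose. Without the second library they were at -4.34 and -3.83. Rank 52 had 569, 147 and 336 CPM at 10 µg/kg, against 2161 to 3021 CPM in the low end, and was already called as a fall at 1 µg/kg (-1.39), a call lost without the second or the third library of that dose. The 4 members further down, ranks 51, 29, 30 and 60, had log2 fold changes of -2.29, -2.16, -2.12 and -2.10.

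Among these 10 members, the one ranked 29 lost the most counts. It had 1499, 1304 and 1271 CPM at 10 µg/kg, against 4803 to 7385 CPM in the low end, a loss of 0.423 percentage points of all gene counts. It was called as a fall at 1, 3 and 10 µg/kg, with log2 fold changes of -1.20, -1.13 and -2.16. The call at 1 µg/kg was lost in 4 of 33 other settings, among them those without the second library of that dose or without the third. Its vehicle libraries were uneven, with 7167, 3182 and 2962 CPM. A larger loss in counts, 0.528 percentage points, came from the member ranked 2, which had 25528, 25645 and 25396 CPM at 10 µg/kg, against 25498 to 35068 CPM in the low end. Its groups overlapped in these CPM, which lack the TMM scaling of library sizes that the fold change uses. The log2 fold change of -0.40 was close to the threshold (SE 0.15, adjusted p 0.0431 in edgeR). That call was lost in 12 of 33 other settings, with adjusted p up to 0.171, among them the fits without any one of the 3 libraries at 10 µg/kg.

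Of the 12 most abundant members 6 were called at 10 µg/kg, the rise of rank 1 and the falls of ranks 2, 3, 4, 8 and 9. These falls ran from -0.61 to -0.40 on the log2 scale. Rank 8 had 7098, 7587 and 8165 CPM at 10 µg/kg, against 9876 to 11711 CPM in the low end (log2 fold change -0.60, SE 0.11, adjusted p 0.000398). Rank 9 had 7002, 6718 and 5426 CPM at 10 µg/kg, against 8320 to 10160 CPM in the low end, and was also called at 3 µg/kg, a call lost in 12 of 33 other settings with adjusted p up to 0.207 in edgeR. Ranks 5, 6, 7, 10, 11 and 12 were not called. Of the 44 members ranked 13 to 56, 24 were called at 10 µg/kg, all as falls, and of the 56 ranked 57 to 112, 36 were called, 5 as rises and 31 as falls. The median log2 fold change was -0.12 in ranks 1 to 12, -0.48 in ranks 13 to 56 and -0.55 in ranks 57 to 112. Of the vehicle's first 12, 10 were still among the first 12 members by mean level at 10 µg/kg, in another order: rank 1 stayed first, rank 3 stood at position 6, rank 4 at 10 and rank 9 at 14.

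The 46 members not called at 10 µg/kg are not thereby shown to be steady. For 25 of them the approximate 95% interval of the difference stayed within 1.5-fold of no change. For the other 21 the interval reached beyond 1.5-fold. The steadiest member over the doses, picked on these values, was rank 68, whose 7 dose means lay between 1893 and 2062 CPM, a ratio of 1.09. Rank 45 followed with dose means of 2746 to 3060 CPM. The highest dose mean exceeded the lowest by less than 1.2-fold in 8 members, by at least 2-fold in 31 and by at least 10-fold in 6, and the median ratio was 1.52.

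Compared with vehicle, which is described without a test, the members' median log2 fold change was -0.04 at 0.01, -0.10 at 0.03, -0.09 at 0.1, -0.18 at 0.3, -0.17 at 1, -0.23 at 3 and -0.58 at 10 µg/kg. At 10 µg/kg 95 members were below and 17 above their vehicle level on this scale, 26 of them at least 2-fold lower and 3 at least 2-fold higher. Members within 1.5-fold of vehicle numbered 106 at 0.01, 104 at 0.3, 95 at 1, 77 at 3 and 53 at 10 µg/kg. The comparisons with vehicle all share the vehicle libraries, and those with the low end share its 6 libraries, so they are given side by side only.

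Rats of a dose differed more for some members than for others. The coefficient of variation between the 3 libraries of a dose, taken as the median over the 7 doses, had a median of 11.6% over the members and ranged from 2.16% to 57.3%. It was 12.7% over 6356 other IDs that averaged 10 CPM or more. It was under 10% in 50 members and over 30% in 9. The widest were rank 75 at 57.3%, rank 76 at 56.8%, rank 94 at 54.8% and rank 64 at 51.2%.

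Rank 76 was nearly silent in single rats. It had 1441, 1.46 and 1083 CPM at 0.01 µg/kg, 1.78, 807 and 355 at 0.03, 748, 77.2 and 1.30 at 3 and 67.5, 96 and 25 at 10 µg/kg. At 0.1, 0.3 and 1 µg/kg its libraries ranged from 391 to 1064 CPM, and in vehicle they had 916, 2330 and 1415 CPM. All 3 libraries at 10 µg/kg were low, yet 2 low-end libraries were lower still, so the groups overlapped. The log2 fold change at 10 µg/kg was -3.36, with a standard error of 1.54 and a 95% interval of -6.37 to -0.34, and was not called (adjusted p 0.103 in edgeR). Rank 75 differed between rats at every dose, with 814, 1884 and 2982 CPM at 10 µg/kg and 481, 2417 and 2170 CPM in vehicle.

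**Figure D5:**
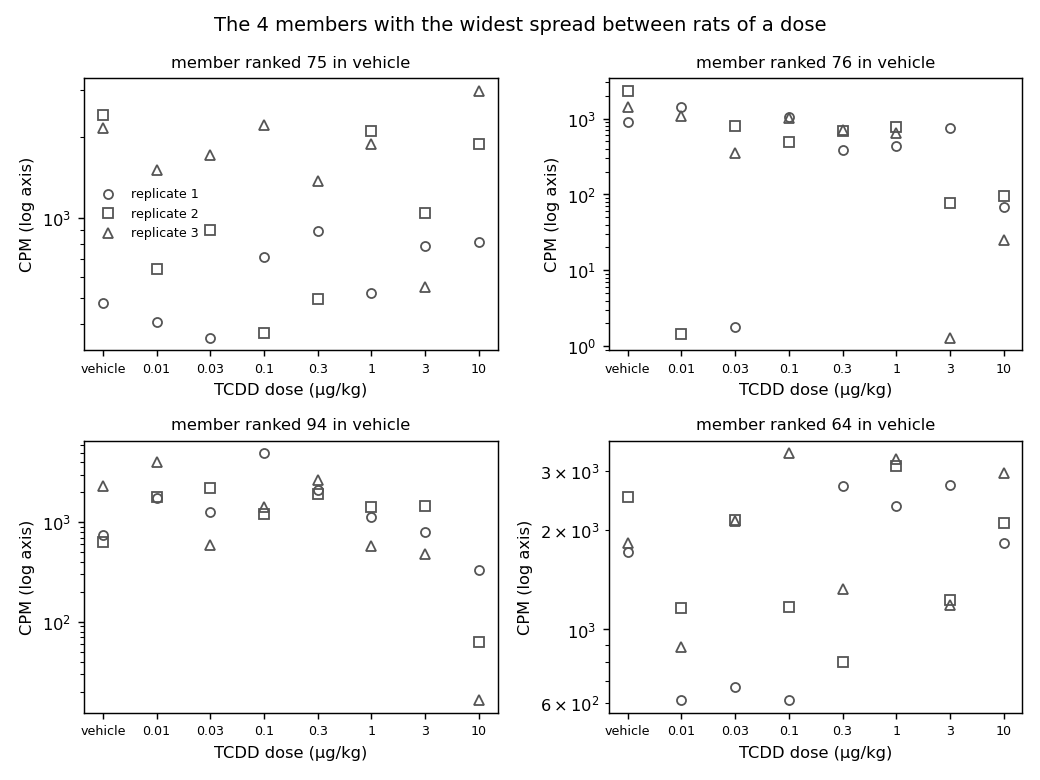
Level per library (CPM, log axis) of the 4 members with the widest spread between rats of a dose (ranks 75, 76, 94 and 64), in vehicle and at the 7 doses (µg/kg), with a symbol for each replicate number. Rank 76 drops to 1.46, 1.78 and 1.30 CPM in 1 library each at 0.01, 0.03 and 3 µg/kg, while ranks 75 and 64 scatter at most doses.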

How the data were processed

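The authors deposited raw counts, whole numbers for each Ensembl gene ID, library by library. The submitters' processing notes list TopHat 1.4.1, HTSeq 0.6.1, DESeq, cutadapt 1.4.1, FastQC 0.11.2 and SAMtools 0.1.2 with no order or settings. Genome build, annotation and strandedness of counting are not given in the sources used here, so counts of near-identical copies, overlapping genes and antisense genes are uncertain for a single ID. The 5 HTSeq summary rows, 35.8% to 47.5% of each table, were kept out of totals and tests. Gene counts per library were 11816273 to 15804887.

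Groups came from the dose labels. Levels are CPM on the sum of gene rows, and the library-by-library counts of overlap used TMM-scaled CPM. In R 4.3.3, edgeR 4.0.16 kept 12496 genes (filterByExpr), scaled by TMM (factors 0.898 to 1.11) and fitted all 8 groups with glmQLFit (16 residual degrees of freedom, biological coefficient of variation 22.3%), or the 21 TCDD libraries for the trend on the rank of the dose. Standard errors of log2 fold changes were derived from the F statistic. The steps recovered changes put into simulated counts, for a small random set of genes with as many rises as falls. No lean of abundant genes toward falls was simulated, so that run could not check the scaling for the members. Counts of any 2 replicates in a group differed beyond sampling noise, and p-values cover the spread between these rats.

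The members, the lists and the tests were chosen with earlier results of these data known. Members were picked on vehicle, so no test contains the vehicle mean. This takes the vehicle values out of the contrasts but does not undo the choice of genes high in vehicle. None of the 26404 IDs matched the RefSeq gene table (GRCr8) or the promoter table used here, so gene lists and cell type markers could not be applied and no sequence is shown. The rule then names the 2 largest called rises and falls at 10 µg/kg, and other members by vehicle rank. Members described beyond the 12 highest, the 10 largest rises and falls and the threshold neighbours (ranks 45, 64, 68, 75, 76 and 99) were chosen after their values were seen. Alternatives were RLE scaling, no scaling, DESeq2 1.42.0, other low-count filters, the replicate number as a block, fits of the compared groups or of the TCDD libraries alone, 0.01 µg/kg alone as the low end, dose on a linear scale, other membership thresholds and leaving out each library.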

Additional observations from a re-analysis of the deposited data

Results flagged for a closer look

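Alignments at more than 1 place, a row of the count tables that belongs to no gene and enters none of the comparisons, made up 32.0% ± 2.85 at 10 µg/kg (SD, n = 3), against 24.1% ± 0.797 in vehicle. All 3 libraries at 10 µg/kg lay above the 21 others. Its part in the members' results was not tested. Groups of 3 libraries are too small for the test of single outlying samples.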

How the results depend on the processing

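Across all settings run, no member that was called changed the sign of its log2 fold change. At 10 µg/kg over the low end the members called numbered 66, 58 to 69 under the other settings checked for it with all libraries in, and 54 to 68 when single libraries were left out. Leaving out single libraries gave 16 to 25 members at 3, 1 to 11 at 1, 1 to 2 at 0.3 and always 1 at 0.1 µg/kg, 8 to 28 for 10 against 3 µg/kg, 50 to 58 for the trend and 35 to 51 for any difference among doses. With no scaling beyond the total count, 15 members were called for 10 against 3 µg/kg, and all genes tested had a median log2 fold change of 0.12 at 10 µg/kg over the low end and 0.18 for 10 against 3 µg/kg, with members at -0.36 and -0.13. A fit of the compared groups alone called 10 members for 10 against 3 µg/kg, then 5 at 1 and 0 at 0.1 µg/kg (edgeR, 1 member at an unadjusted p under 0.05; DESeq2 called 1). The same setting called 279, 131 and 1 of all genes in these comparisons. With 0.01 µg/kg alone as the low end 5 were called at 1 µg/kg, and 113 of all genes. DESeq2 called 34 at 3, 13 at 1, 2 at 0.3 µg/kg and 36 for 10 against 3 µg/kg. Of all genes it called 464 at 1 and 106 at 0.3 µg/kg. The main fit called 661 of all genes for 10 against 3 µg/kg, 256 at 1, 25 at 0.3 and 7 at 0.1 µg/kg. The causes were not tested.

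The replicate numbers do not pair the rats by the labels. Deviations of same-numbered libraries correlated from -0.29 to 0.46, -0.29 to 0.31 and -0.08 to 0.49 for the 3 numbers, and 15 of 24 libraries correlated best with their own number. The medians were 0.12, 0.02 and 0.22, against -0.07 between libraries of different numbers. The main fit leaves the number out, and what same-numbered libraries may share was not tested. With the number as a replicate block 69, 24, 11, 1 and 1 members were called at 10, 3, 1, 0.3 and 0.1 µg/kg over the low end, 32 for 10 against 3 µg/kg, 56 for the trend and 52 for any difference.

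At a membership threshold of 500 CPM there are 221 members, holding 49.3% of gene counts at 10 µg/kg and 52.6% in vehicle, of which 1.36% were called at 0.3 and 0.452% at 0.1 µg/kg. At 2000 CPM there are 65, holding 33.8% at 10 µg/kg and 38.5% in vehicle, of which 10.8% were called at 3, 3.08% at 1 and 0% at both 0.3 and 0.1 µg/kg (edgeR, 5 and 0 members at an unadjusted p under 0.05). Relative to all rows, summary rows included, the 112 members held 23.6% at 10 µg/kg and 27% in vehicle. Without 1 vehicle library the number of members was 106 to 116, and 115 with TMM-scaled CPM.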
